A study of Mus musculus with 5 samples.

Results

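The EGF receptor gene Egfr and the genes of 6 of its ligands (Areg, Hbegf, Epgn, Ereg, Tgfa and Btc) were followed across the cell types of mouse skin, with and without a wound. The 7 genes were taken by symbol from the 27998 genes of the deposited count tables, and each symbol matched 1 row. Live cells from C57BL/6 skin were profiled with droplet-based single-cell RNA sequencing that reads the 3' end of polyadenylated transcripts (10x Genomics). There were 2 libraries of un-wounded skin, whose age the labels do not give, and 3 libraries of wounded skin. The wounded mice received a 6-mm punch biopsy at 7 weeks of age, and a wider 10-mm punch took the wound region on day 4, so that each wounded library holds the wound with the skin around it.

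The EGF receptor is a tyrosine kinase at the cell surface. Its ligands are made as membrane-bound precursors that proteases of the ADAM family cut free, and they then bind the receptor on the same or on neighbouring cells. In the epidermis the receptor drives keratinocyte proliferation and migration and delays differentiation, and its ligands are known autocrine growth factors of keratinocytes. Amphiregulin, the Areg product, is also a known product of T cells, innate lymphoid cells and mast cells.

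All 6 ligand genes encode an EGF-like domain, the part that contacts the receptor. A search of the translated GENCODE vM21 coding sequences found the 6-cysteine EGF spacing once in each ligand gene: 7, 4, 10, 1 and 8 residues lie between successive cysteines, and the motif spans 36 residues (108 coding bases) in all 6. Within the motif, pairs of ligands shared from 12 residues (33.3%, Areg with Epgn and Areg with Ereg) to 20 residues (55.6%, Btc with Hbegf), the cysteines included. The coding bases are shown for 5 ligands, because these are the domains whose spacing the family shares while the rest of the sequence differs. They are written 5′ to 3′ on the coding strand with the 6 cysteine codons in capitals and introns left out. On GRCm38 the motifs span chr5:91031152-91032237 (Epgn, plus strand), chr5:91088496-91089111 (Ereg, plus strand), chr5:91143614-91144364 (Areg, plus strand), chr5:91362421-91366197 (Btc, minus strand) and chr6:86263200-86269960 (Tgfa, plus strand).
Epgn: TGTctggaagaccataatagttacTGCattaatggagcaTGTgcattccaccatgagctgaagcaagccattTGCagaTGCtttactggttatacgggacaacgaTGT
Ereg: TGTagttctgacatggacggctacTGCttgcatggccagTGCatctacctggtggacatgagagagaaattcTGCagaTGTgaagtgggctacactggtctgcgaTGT
Areg: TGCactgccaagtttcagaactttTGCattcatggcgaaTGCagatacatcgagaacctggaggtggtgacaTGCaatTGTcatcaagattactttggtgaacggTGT
Btc: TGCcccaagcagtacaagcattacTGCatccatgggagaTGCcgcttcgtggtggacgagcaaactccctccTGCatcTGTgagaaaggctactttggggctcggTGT
Tgfa: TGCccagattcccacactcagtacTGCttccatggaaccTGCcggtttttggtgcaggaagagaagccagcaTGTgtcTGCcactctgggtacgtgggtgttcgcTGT

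In the GENCODE vM21 annotation of GRCm38, Epgn (chr5:91027464-91035215), Ereg (chr5:91074622-91093646), Areg (chr5:91139599-91148432) and Btc (chr5:91357261-91402994) are neighbours with no other protein-coding gene between them, over 376 kb. Egfr (chr11:16752203-16918158), Tgfa (chr6:86195223-86275719) and Hbegf on chromosome 18 lie apart. An antisense gene overlaps Egfr (Egfros) and Ereg (Gm19610), and a gene of unclear type overlaps Tgfa (Gm43917); a strand-aware count is not stated in the sources used here.

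The libraries held 31291153 to 54392752 UMIs (unique molecular identifiers, 1 per captured RNA molecule) in 3986 to 7057 kept cells, with medians of 6020 to 7938 UMIs per cell. Of 32 cell clusters, 26 could be named from marker genes, and the classes below carry the name of the type their markers resemble. Keratinocytes were unequally sampled: the basal class held 2265 and 946 cells in the un-wounded libraries but 1548, 30 and 157 in wounded libraries 1, 2 and 3, and the spinous class 994 and 711 against 814, 52 and 149. Macrophages or monocytes went the other way (4 and 33 against 291, 415 and 942 cells). Values are in CPM: a gene's UMIs summed over the cells of a class in a library and scaled to a total of 1000000 UMIs. The labels do not say that the libraries come from separate animals, so the p-values may measure only technical spread. Between 22 and 56 cell barcodes recurred between any pair of libraries, at most 1.11% of the smaller library.

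Taken over whole libraries, 0 of the 7 genes differed between wounded and un-wounded skin in edgeR's quasi-likelihood test with Benjamini-Hochberg adjustment over all genes, against 0.645% of 15494 genes called. One gene, Ereg, had an unadjusted p below 0.05, and DESeq2 called 1. Ereg had 0.0317 and 0.261 CPM in un-wounded skin against 5.09, 7.61 and 20.1 CPM in wounded skin, a log2 fold change of 6.22 ± 1.09 (SE; edgeR, adjusted p = 0.0632). Areg had 36.3 and 14.8 CPM in un-wounded libraries 1 and 2 and 38.6, 67.7 and 88.0 CPM in the wounded libraries, with a log2 fold change of 1.36 ± 0.57 (edgeR, adjusted p = 0.199). The mean level of Epgn was 28.4 CPM in un-wounded and 27.5 CPM in wounded libraries. In whole libraries a change in the number of cells of a type and a change in RNA per cell cannot be told apart, so the classes were tested one by one.

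**Figure D1:**
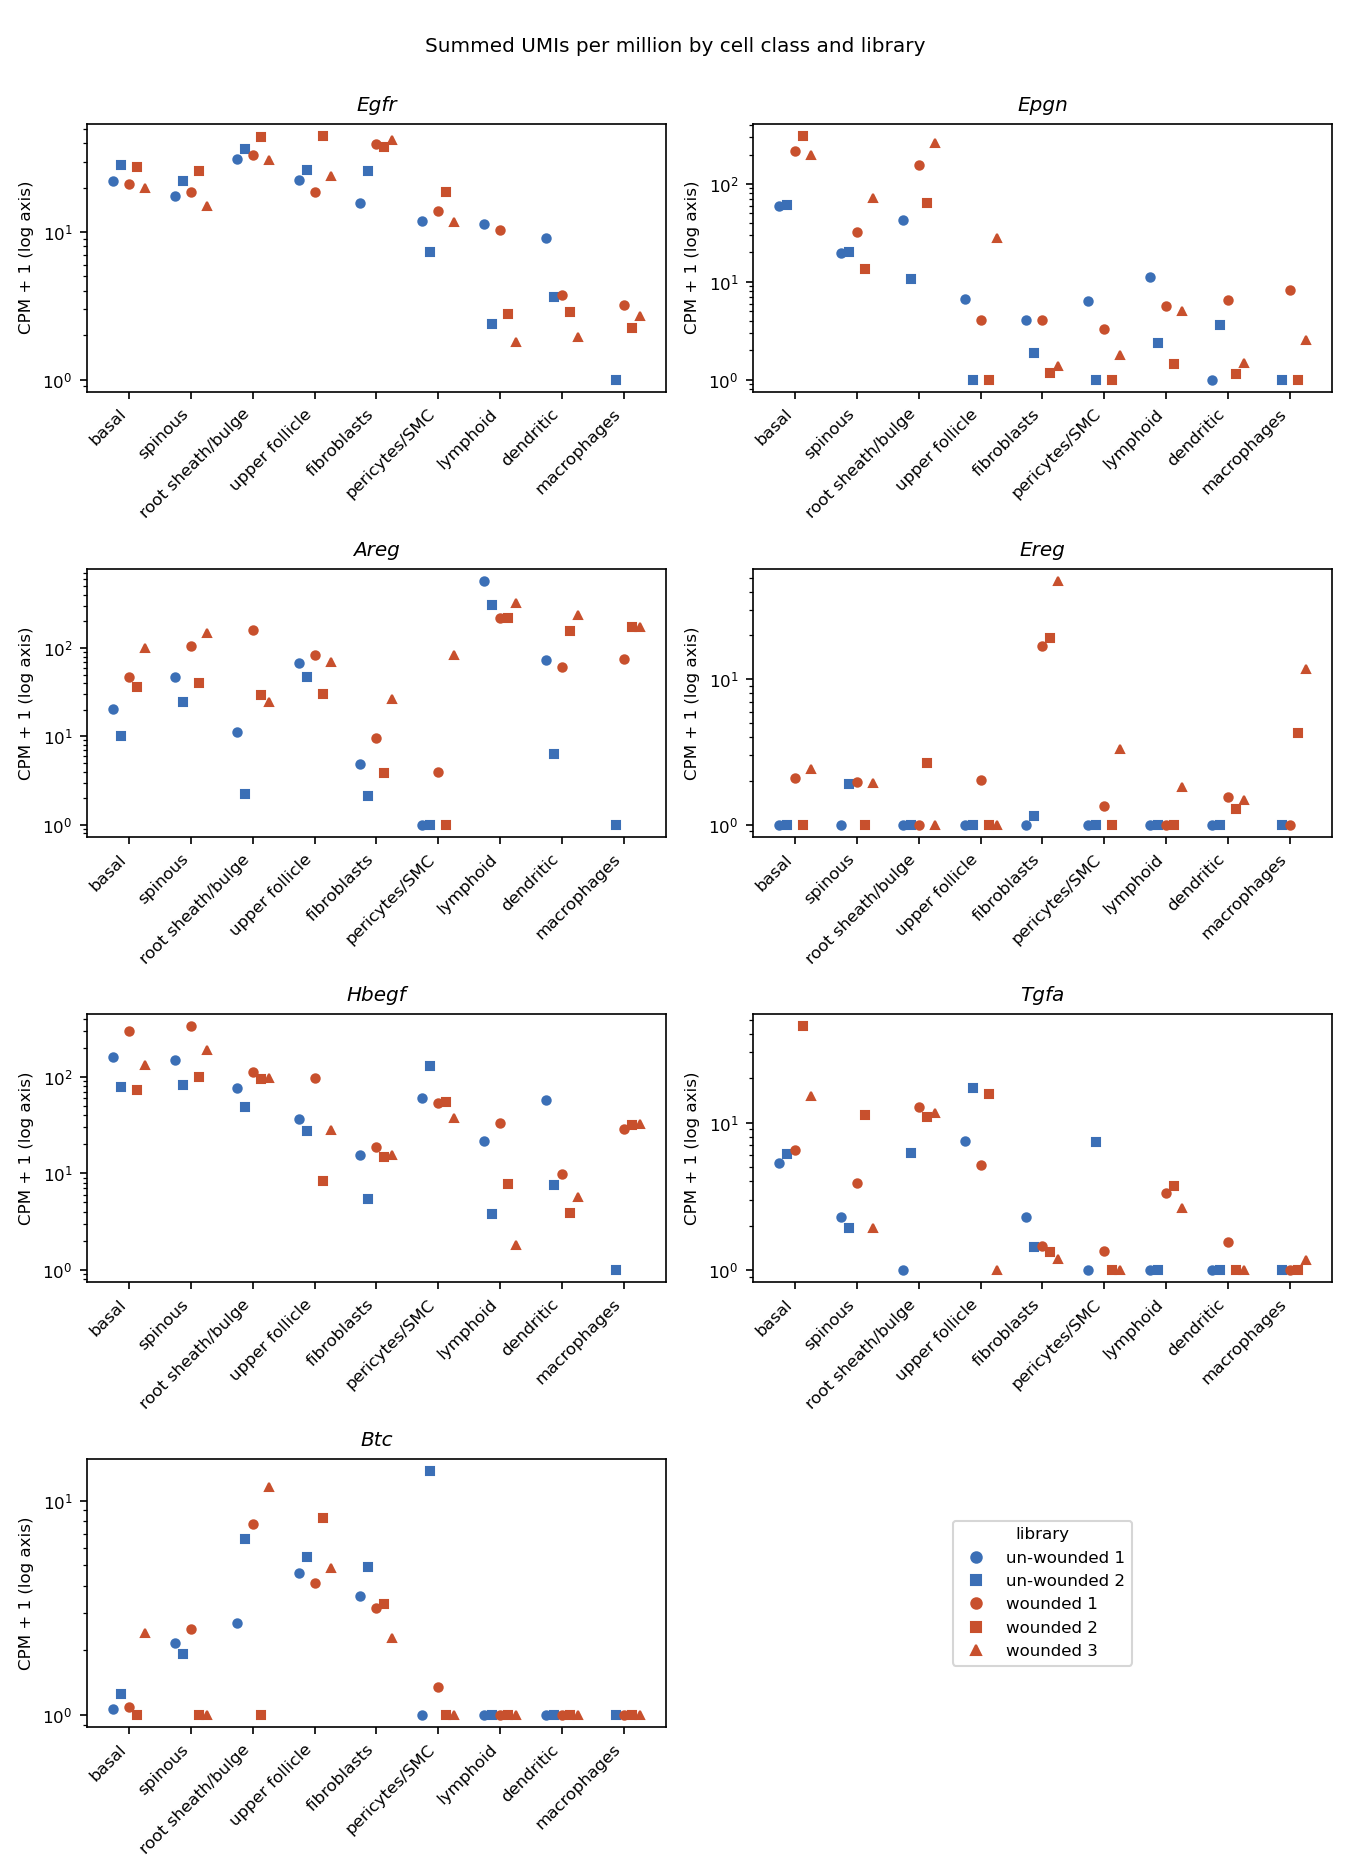
Level of each gene (CPM + 1, log axis) in 9 cell classes; each point is 1 library with at least 20 cells of the class (blue, un-wounded; red, wounded), and a point at 1 means no UMI. Epgn has its highest group means in the basal class, where the 3 wounded libraries (195 to 311 CPM) lie above both un-wounded libraries (58.6 and 60.4 CPM), and Ereg stands out in the fibroblasts of the wounded libraries.

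Egfr, the receptor, was found in keratinocytes and stromal cells and was lower in most immune classes. In un-wounded skin its mean level was 49.1 CPM in sebocytes (n = 2 libraries), 33.0 ± 3.68 CPM (SD, n = 2) in outer root sheath or bulge keratinocytes, 24.2 ± 4.38 CPM in basal keratinocytes, 23.4 ± 2.63 CPM in upper hair follicle keratinocytes, 19.9 ± 7.25 CPM in fibroblasts and 18.8 ± 3.38 CPM in spinous keratinocytes. From the basal class downwards, neighbours in this order do not differ beyond their spread. Pericytes or smooth muscle cells followed with 8.61 ± 3.18 CPM. Macrophages of the wounded libraries had 1.23 to 2.20 CPM and dendritic cells 0.941 to 2.73 CPM, but neutrophils had 6.13, 10.2 and 16.4 CPM (1, 5 and 4 UMIs). Mast cells had no Egfr UMI in the 3 libraries where they were found (20 to 47 cells each). A cluster of 842 cells led by Cxcl13, a chemokine gene, and Thbs4, a matrix protein gene, held more Egfr than any other cluster with at least 20 cells in a library: 111 and 97.1 CPM in the un-wounded libraries (7 and 42 cells) and 93.7, 113 and 87.3 CPM in the wounded libraries. Its best-matching markers were those of fibroblasts, but its margin over the next type was under the 0.5 asked for, and it was left unnamed.

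Epgn and Areg rose in basal keratinocytes of wounded skin. Epigen, the Epgn product, is a low-affinity ligand of the receptor. In basal keratinocytes Epgn had 58.6 and 60.4 CPM in un-wounded libraries 1 and 2 and 218, 311 and 195 CPM in wounded libraries 1, 2 and 3. The wounded libraries were all higher, with no overlap: the means were 59.5 ± 1.22 CPM (SD, n = 2) and 241 ± 61.2 CPM (n = 3), and the log2 fold change was 2.09 ± 0.29 (SE; edgeR, adjusted p = 9.39e-05). Areg had 19.6 and 9.19 CPM against 46.1, 35.5 and 98.7 CPM, again without overlap, with a log2 fold change of 2.29 ± 0.40 (edgeR, adjusted p = 0.00138). These were 2 of the 5 genes that passed the filter on low counts in basal keratinocytes, where 1.81% of 11364 genes were called; Ereg and Btc did not pass it. Wounded library 2 has 30 basal cells and 70 Epgn UMIs, 81.4% of them in 2 cells. Its basal cells have 8 Areg UMIs, 75% of them in 2 cells. In wounded library 3, 2 basal cells held 50% of the 208 Areg UMIs. With the 2 highest cells of each gene left out of every library, the log2 fold change was 1.97 for Epgn (edgeR, adjusted p = 7.06e-08) and 2.13 for Areg (edgeR, adjusted p = 5.62e-07). Without wounded library 2 the log2 fold change was 2.01 for Epgn (edgeR, adjusted p = 0.00112) and 2.51 for Areg (edgeR, adjusted p = 0.00554).

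**Figure D2:**
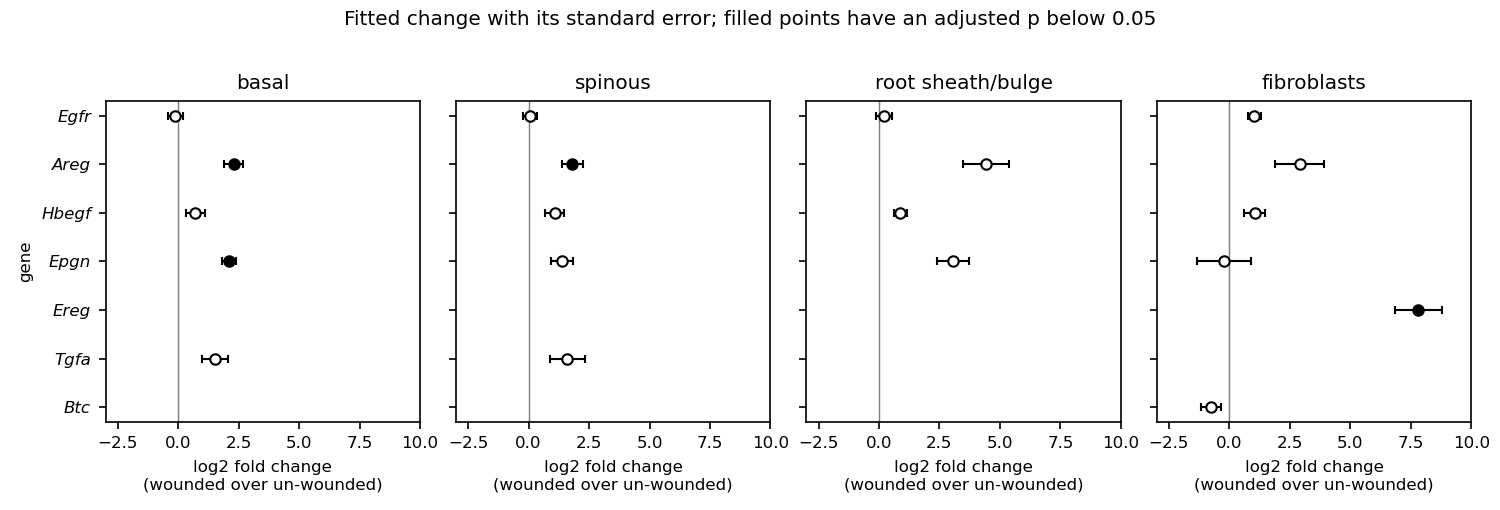
Log2 fold change, wounded over un-wounded, with its standard error for each gene tested in 4 classes; filled points have an adjusted p below 0.05 and a gene without a point did not pass the filter. Epgn (2.09) and Areg (2.29) in the basal class, Areg (1.81) in the spinous class and Ereg (7.80) in fibroblasts are filled.

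The share of basal cells with at least 1 Epgn UMI was also measured. After thinning each cell to 1500 UMIs the share was 4.60% and 4.76% of un-wounded basal cells (104 of 2263 and 45 of 946) and 14.5%, 16.7% and 17.2% of wounded basal cells (225 of 1548, 5 of 30 and 27 of 157). Without thinning it was 12.1% and 15.5% against 28.9%, 26.7% and 36.9%. The difference of 11.5 percentage points had an exact two-sided permutation p of 0.1, the smallest that 2 against 3 libraries allow, and an adjusted p of 1 over 63 such tests. For Areg the thinned share was 1.68% and 0.74% of un-wounded against 4.01%, 0% and 5.10% of wounded basal cells. These groups overlap, and the difference of 1.82 points had an exact two-sided permutation p of 0.4. In lymphoid cells, which are not a known source of Epgn, the thinned share had means of 1.07% and 0.477%, at median depths of 2048 to 3852 UMIs per cell against 6297 to 11220 UMIs in basal cells.

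Within the basal class Epgn was highest in 1 of 4 clusters, and its difference between wounded and un-wounded skin varied between them. Cluster 2, whose leading genes are Epgn itself, Serpinb2 (a protease inhibitor) and Fosl1 (an AP-1 transcription factor), had 200 and 216 CPM in un-wounded against 363, 927 and 360 CPM in wounded libraries, the 927 CPM from 7 cells. It made up 390 of 2265 and 87 of 946 basal cells in un-wounded skin and 753 of 1548, 7 of 30 and 62 of 157 in wounded skin, and cluster 4, led by Fcgbp and Col17a1, held 809 and 614 cells against 145, 13 and 28. In libraries with at least 20 cells of the cluster, basal cluster 3 had 48.2 to 54.8 CPM of Epgn in un-wounded against 143 to 151 CPM in wounded skin. Cluster 4 went the other way, with 10.8 to 18.6 CPM against at most 4.41 CPM. All wounded libraries together held 5 Epgn UMIs in cluster 4. In basal cluster 16 the groups overlapped, with 22.3 to 72.5 CPM against 54.6 to 106 CPM. The 7 genes were left out of the clustering, but each cluster's other genes also define it, so the cluster levels are a description. Without cluster 2 the log2 fold change of the basal class was 1.75 for Epgn (edgeR, adjusted p = 0.00224) and 2.65 for Areg (edgeR, adjusted p = 0.0143). With predicted doublets kept, a clustering that placed 47 in place of 30 cells of wounded library 2 in the basal class, neither gene was called (Epgn 1.68, adjusted p = 0.0787; Areg 2.45, adjusted p = 0.169; edgeR).

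The start regions of both genes are shown because Epgn and Areg rose in the same class and lie on chromosome 5 with Ereg between them. The windows run from 250 bases before to 50 bases after the RefSeq start site (GRCm38.p6), on the plus strand, at chr5:91027267-91027566 for Epgn and chr5:91139349-91139648 for Areg. They were searched on both strands for the AP-1 motif TGANTCA and the cyclic AMP response element TGACGTCA, which do not overlap here; matches are in capitals. Areg holds 1 cyclic AMP response element, starting 61 bases before the start site, and no AP-1 motif, and Epgn holds neither. Of 32851 RefSeq windows of the same length, 7.81% hold TGANTCA and 1.79% hold TGACGTCA. Windows were found for 5 of the 7 genes, and those of Egfr, Tgfa and Btc hold neither motif.
Epgn: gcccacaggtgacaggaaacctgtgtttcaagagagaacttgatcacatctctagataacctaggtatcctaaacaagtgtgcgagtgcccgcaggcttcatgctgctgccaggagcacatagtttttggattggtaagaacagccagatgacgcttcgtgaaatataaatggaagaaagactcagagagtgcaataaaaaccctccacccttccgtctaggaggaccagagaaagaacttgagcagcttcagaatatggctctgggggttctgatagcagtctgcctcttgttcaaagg
Areg: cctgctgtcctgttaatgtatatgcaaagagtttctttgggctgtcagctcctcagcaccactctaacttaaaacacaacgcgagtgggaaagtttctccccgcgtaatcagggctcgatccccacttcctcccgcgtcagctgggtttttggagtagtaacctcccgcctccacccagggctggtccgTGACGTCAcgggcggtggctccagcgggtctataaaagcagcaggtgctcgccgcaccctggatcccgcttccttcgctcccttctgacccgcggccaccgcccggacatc

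Areg rose in spinous keratinocytes too, the layer above the basal cells. Areg had 45.8 and 23.4 CPM in un-wounded against 105, 39.4 and 148 CPM in wounded libraries, so that wounded library 2 (52 cells) lies between the un-wounded libraries. Its log2 fold change was 1.81 ± 0.43 (SE; edgeR, adjusted p = 0.0388). Areg was the 1 gene called of 5 tested in this class, where 1.85% of 11000 genes were called. The call was lost in 8 of 16 alternatives, among them DESeq2 (1.76, adjusted p = 0.603), the fits without un-wounded library 1 (2.30, adjusted p = 0.211), without un-wounded library 2 (1.41, adjusted p = 0.531) and without wounded library 3 (adjusted p = 0.236). Epgn had 18.6 and 19.1 CPM against 31.3, 12.4 and 70.1 CPM in spinous cells, with overlapping groups and a log2 fold change of 1.38 ± 0.45 (edgeR, adjusted p = 0.197). The difference between the wound effects in spinous and basal cells was tested for 6 genes and called for 0 (0.235% of 11891 genes; 2 genes below an unadjusted p of 0.05). It was -0.72 for Epgn (edgeR, adjusted p = 0.883) and -0.32 for Areg (edgeR, adjusted p = 1).

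The outer root sheath or bulge class gave larger but less certain values than the basal class. In the outer root sheath or bulge class, Epgn had 42.3 and 9.61 CPM in un-wounded against 156, 63.2 and 259 CPM in wounded libraries, with no overlap and a log2 fold change of 3.06 ± 0.67 (SE; edgeR, adjusted p = 0.070). Areg had 10.1 and 1.20 CPM against 158, 28.3 and 23.2 CPM, also with no overlap, and a log2 fold change of 4.44 ± 0.95 (edgeR, adjusted p = 0.0641). Few cells carried these UMIs: the 2 highest cells gave 76.3% of the Areg UMIs of wounded library 1 and 66.7% of the Epgn UMIs of wounded library 3. Here 0 of 4 tested genes were called by edgeR, against 0.780% of 6023 genes; 3 had an unadjusted p below 0.05 and DESeq2 called 1, Epgn (adjusted p = 0.0023). In upper hair follicle keratinocytes 0 of 3 were called, against 0.137% of 5834 genes, with 0 below an unadjusted p of 0.05 and 0 by DESeq2, and Areg had 66.6 and 46.0 CPM against 83.0, 29.3 and 68.9 CPM.

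Hbegf was abundant in keratinocytes, and its difference between wounded and un-wounded skin was not called in any class. Heparin-binding EGF-like growth factor, its product, is a known early keratinocyte ligand after injury. It had 158 and 76.3 CPM in un-wounded against 298, 71.0 and 130 CPM in wounded basal cells, where the groups overlap (log2 fold change 0.71 ± 0.40; edgeR, adjusted p = 0.624). In spinous cells it had 148 and 81.4 CPM against 334, 97.4 and 188 CPM, again with overlap (1.08 ± 0.39; edgeR, adjusted p = 0.274). In outer root sheath or bulge cells the groups did not overlap, with 76.1 and 48.1 CPM against 112, 93.2 and 94.9 CPM (0.89 ± 0.28; edgeR, adjusted p = 0.219). In pericytes or smooth muscle cells Hbegf was the only one of the 7 genes tested and was not called, against 16.5% of 4015 genes called, with an unadjusted p below 0.05 and no call by DESeq2. It had 59.7 and 127 CPM in un-wounded against 51.9, 53.2 and 36.1 CPM in wounded pericytes (-1.02 ± 0.39; edgeR, adjusted p = 0.109). In the same class 6 of 12 early genes known to rise while tissue is dissociated fell (Fos, Junb, Egr1, Atf3, Nr4a1 and Zfp36; edgeR), with a list median of -1.48. Their summed level was 48935 and 28526 CPM in un-wounded against 15934, 17625 and 10021 CPM in wounded pericytes, and their part in the Hbegf level was not tested.

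The levels of Hbegf and Areg varied between the clusters of a keratinocyte class. In the basal clusters Hbegf had 189 to 448 CPM per library in cluster 2 and 93.9 to 215 CPM in cluster 16, but 3.82 to 13.1 CPM in cluster 4. In the spinous clusters it had 208 to 394 CPM in cluster 0 and 0 to 20.7 CPM in cluster 1. Areg had 51.4 to 170 CPM in cluster 0 and 1.28 to 10.0 CPM in cluster 1. Spinous cluster 22 had 194 and 214 CPM of Areg and 148 and 313 CPM of Hbegf in un-wounded library 1 and wounded library 1. Clusters 2 and 0 held more of the 12 early dissociation genes (Fos, Jun and Atf3 among them) than clusters 4 and 1, and clusters 16 and 22 are not part of this comparison. The summed level of these genes was 12400 to 26096 CPM in cluster 2 and 10565 to 25013 CPM in cluster 0, against 4309 to 8658 CPM in cluster 4 and 3812 to 6601 CPM in cluster 1. Over the whole basal class the summed level was 23882 and 13052 CPM in un-wounded against 23364, 9505 and 10648 CPM in wounded libraries. Their part in the levels of Hbegf and Areg was not tested. Besides the 6 that fell in pericytes, 2 of the 12 early genes fell in dendritic cells, Fos (-1.27; edgeR, adjusted p = 0.0405) and Atf3 (-1.36; edgeR, adjusted p = 0.0444), where the summed level was 18064 and 13766 CPM in un-wounded against 10776, 9190 and 6704 CPM in wounded libraries. Of the 12, 0 were called in basal, spinous or fibroblast cells by edgeR or DESeq2, and 0, 0 and 1 had an unadjusted p below 0.05. Their median log2 fold changes were -0.14, 0.10 and -0.36, against medians of all genes of -0.08, -0.04 and -0.0044.

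**Figure D3:**
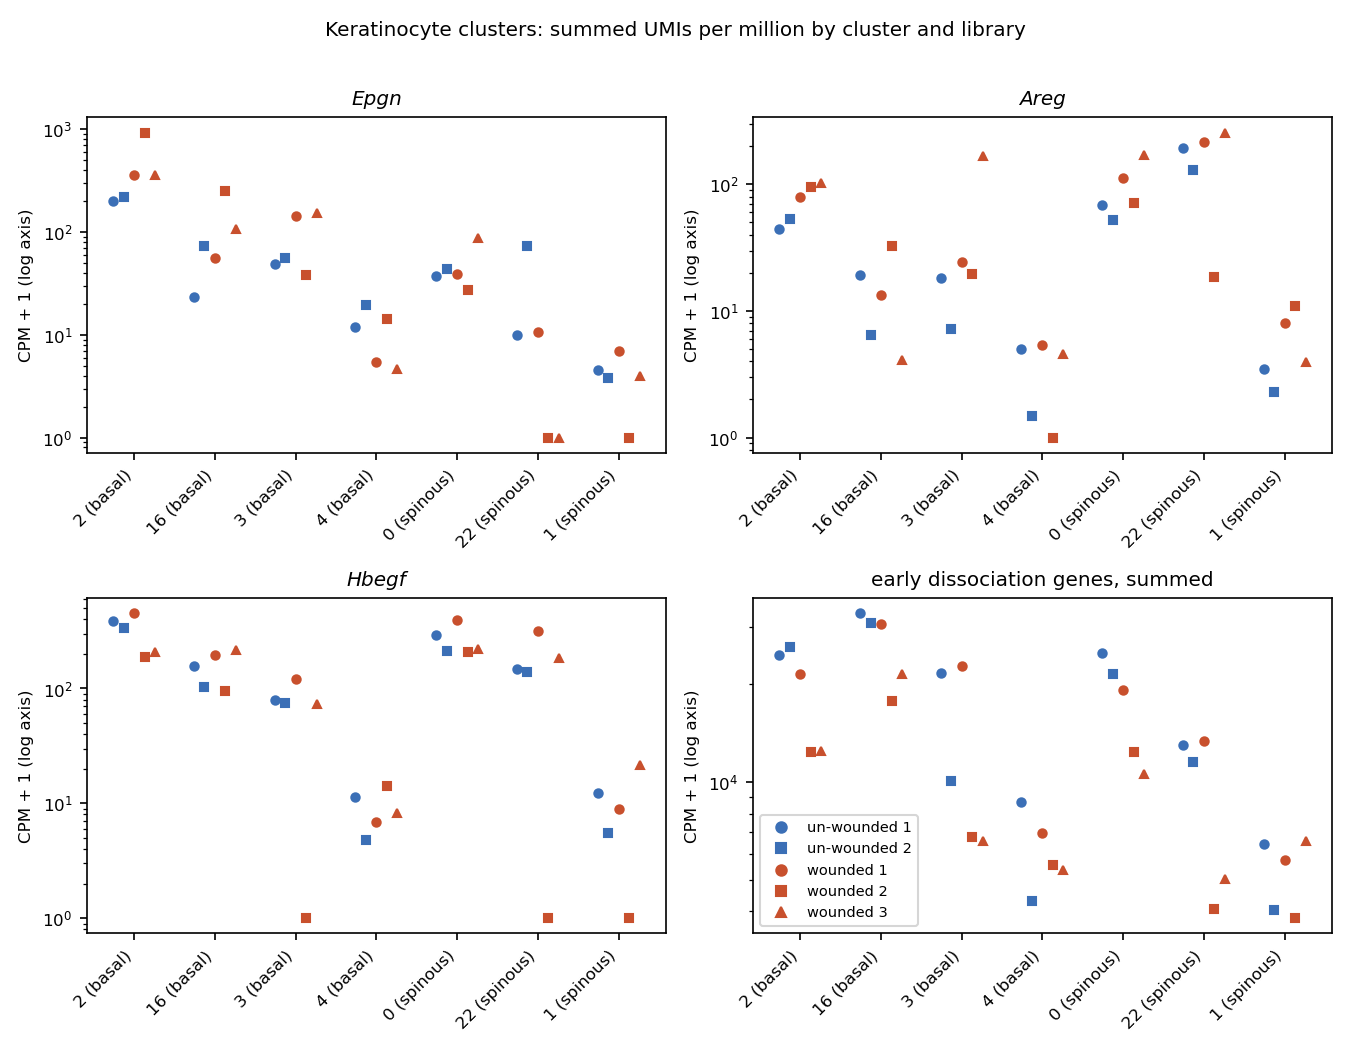
Levels of Epgn, Areg and Hbegf and of 12 early dissociation genes summed (CPM + 1, log axes) in 4 basal and 3 spinous clusters; each point is 1 library (blue, un-wounded; red, wounded), some from fewer than 10 cells. Hbegf is 189 to 448 CPM in cluster 2 and 13.1 CPM or less in cluster 4, and Epgn is highest in cluster 2.

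Tgfa and Btc were scarce. Transforming growth factor alpha, the Tgfa product, is the long-known keratinocyte ligand, but its transcript had 4.36 and 5.10 CPM in un-wounded against 5.56, 44.4 and 14.2 CPM in wounded basal cells. The 44.4 CPM rest on 10 UMIs, 80.0% of them in 2 cells, and the log2 fold change of 1.53 ± 0.53 was not called (edgeR, adjusted p = 0.231). Betacellulin, the Btc product, had 1.29 to 3.92 CPM in fibroblasts, with a log2 fold change of -0.77 ± 0.41 (edgeR, adjusted p = 0.350), and no UMI in the lymphoid, dendritic, macrophage, mast, neutrophil, Langerhans or sebocyte class of any library. Within fibroblasts, cluster 11 held 4.86 to 11.5 CPM of Btc.

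Ereg rose in fibroblasts of wounded skin, where it was almost absent without a wound. Epiregulin, its product, activates EGFR and ERBB4. Fibroblasts had 0 and 2 Ereg UMIs in the un-wounded libraries (478 and 2029 cells; 0 and 0.142 CPM) and 249, 225 and 721 UMIs in the wounded libraries (1858, 1614 and 1231 cells; 15.9, 18.4 and 46.5 CPM). Over the pooled libraries the level was 225 times higher, with an exact 95% counting interval from 62.1 to 1859 that covers counting error only. The fitted log2 fold change was 7.80 ± 0.97 (SE; edgeR, adjusted p = 0.00319), a value that depends on the prior count where one group is near 0. The 2 highest cells held 20.1%, 45.8% and 12.8% of these UMIs in wounded libraries 1, 2 and 3. Fibroblasts held 89.9%, 94.5% and 90.2% of all Ereg UMIs of the wounded libraries. No Ereg UMI was found in basal cells of the un-wounded libraries and 15 in those of the wounded libraries.

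Most Ereg came from a cluster that was nearly absent from un-wounded skin. Cluster 20, led by Cxcl5 and Cthrc1, a chemokine gene and a collagen-associated gene, had 0 and 3 cells in un-wounded against 451, 183 and 435 cells in wounded libraries. Its Ereg level was 33.5, 60.4 and 71.2 CPM in the wounded libraries, 82.5% to 87.4% of all Ereg UMIs there. Cluster 11 held 0 and 0.524 CPM in un-wounded against 1.28, 15.4 and 50.4 CPM in wounded libraries. Without cluster 20 the fibroblast change in Ereg was 5.16 and was not called (edgeR, adjusted p = 0.170). The call was also lost with predicted doublets kept (5.02, adjusted p = 0.146), with finer clusters (10.5, adjusted p = 0.0712), and without un-wounded library 2 (11.3, adjusted p = 0.0581; edgeR). In these fits the class held 977 (doublets kept) and 909 (finer clusters) cells of wounded library 3 in place of 1231. Both clusterings also named an erythroid class that the main clustering lacked. In wounded libraries 1, 2 and 3 it held 514, 206 and 438 cells with doublets kept and 151, 100 and 39 with finer clusters. Whether cells of cluster 20 were placed in it was not tested, so these lost calls may overlap with that of leaving out cluster 20.

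Of the 6 genes tested in fibroblasts 1, Ereg, was called, against 5.55% of 13105 genes. Egfr had 14.7 and 25.0 CPM in un-wounded against 38.7, 36.9 and 41.1 CPM in wounded fibroblasts. The wounded libraries were all higher, with no overlap, but the log2 fold change of 1.02 ± 0.27 missed the threshold (SE; edgeR, adjusted p = 0.0649). It passed with DESeq2 (1.04, adjusted p = 0.0176) and when the Cxcl13 cluster was added to the class (1.20, edgeR, adjusted p = 0.0259), and was 0.68 without cluster 20 (edgeR, adjusted p = 0.361). Areg had 3.90 and 1.14 CPM against 8.62, 2.86 and 25.4 CPM, with overlap and a log2 fold change of 2.90 ± 1.02 (edgeR, adjusted p = 0.147), which was 0.69 without cluster 20. Hbegf had 14.3 and 4.42 CPM against 17.9, 13.8 and 14.6 CPM (1.05 ± 0.43; edgeR, adjusted p = 0.211), and its change was -0.19 without cluster 20. Epgn stayed at or below 3.06 CPM in fibroblasts.

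The wound effect on Egfr differed between fibroblasts and basal keratinocytes. Basal cells had 21.1 and 27.3 CPM in un-wounded against 20.01, 26.6 and 19.0 CPM in wounded libraries, a log2 fold change of -0.11 ± 0.30 with overlapping groups (SE; edgeR, adjusted p = 0.965), and its sign changed in 3 of 17 alternatives. In a joint fit with the library as a block, the effect in fibroblasts exceeded that in basal cells by 1.13 ± 0.28 on the log2 scale (edgeR, adjusted p = 0.0378). Egfr was the 1 gene called of the 7 in that test, where 2.84% of 13621 genes were called. The call was lost with finer clusters (0.94, adjusted p = 0.203), without un-wounded library 1 (adjusted p = 0.207), without wounded library 1 (1.18, adjusted p = 0.0678) and without wounded library 3 (1.04, adjusted p = 0.165; edgeR). The same test gave -2.21 for Epgn (edgeR, adjusted p = 0.272). Among fibroblast clusters, Egfr had 49.9, 60.7 and 45.6 CPM in cluster 20 of the wounded libraries and 21.2 to 24.0 CPM in cluster 14 of all 5. In cluster 13 it had 17.9 and 44.5 CPM in un-wounded against 59.1, 56.3 and 59.8 CPM in wounded libraries.

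**Figure D4:**
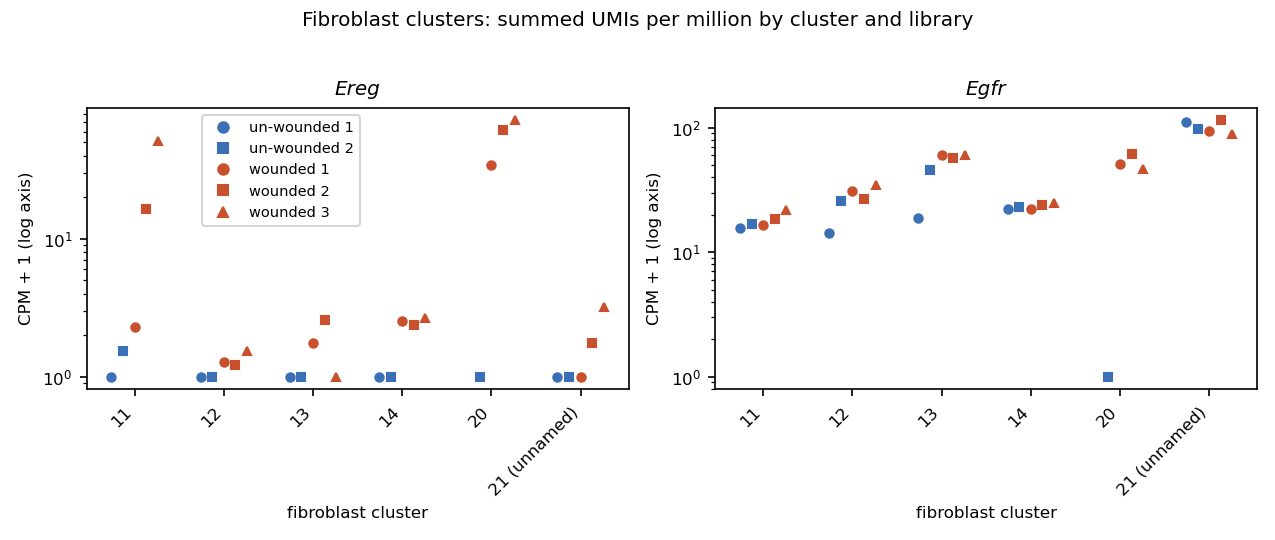
Levels of Ereg and Egfr (CPM + 1, log axes) in 5 fibroblast clusters and in cluster 21, which was not named; each point is 1 library (blue, un-wounded; red, wounded) and cluster 20 has 3 un-wounded cells. Ereg is 33.5 to 71.2 CPM in cluster 20 of the wounded libraries and at most 0.524 CPM in the un-wounded ones, and Egfr is highest in cluster 21.

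Areg was found in lymphoid cells, dendritic cells, macrophages and mast cells, but hardly in neutrophils, which had 0, 1 and 1 Areg UMIs and 67.4, 6.14 and 16.4 CPM of Hbegf in wounded libraries 1, 2 and 3. Lymphoid cells (T cells, NK cells or other lymphoid cells) had 574 and 305 CPM in un-wounded against 218, 216 and 323 CPM in wounded libraries, and the groups overlap. Of 2 genes tested there 0 were called by edgeR, against 0.107% of 6545 genes, with 0 below an unadjusted p of 0.05 and 0 by DESeq2; the log2 fold change of Areg was -0.54 ± 0.35 (SE; edgeR, adjusted p = 0.560). Lymphoid cells with an Areg UMI after thinning to 1500 UMIs were 17.1% and 23.8% in un-wounded against 15.2%, 10.4% and 16.4% in wounded libraries, a difference of -6.47 points (exact two-sided permutation p = 0.1, adjusted p = 1). Without thinning the shares were 18.5% and 30.6% against 23.2%, 16.03% and 29.8%, and the difference of -1.48 points had an exact permutation p of 0.7. Dendritic cells had 72.9 and 5.24 CPM of Areg in un-wounded (9 and 4 UMIs) and 59.5, 153 and 233 CPM in wounded libraries, a log2 fold change of 3.11 ± 0.96 (edgeR, adjusted p = 0.122). There 0 of 2 tested genes were called by edgeR, against 3.00% of 8239 genes, with 1 below an unadjusted p of 0.05 and 0 by DESeq2. Macrophages or monocytes of the wounded libraries had 74.7, 173 and 170 CPM of Areg, and mast cells, found in the wounded libraries, 478, 317 and 49.4 CPM. The mast cell values rest on 41, 33 and 11 UMIs. These came from 1 of 21, 4 of 20 and 3 of 47 mast cells in wounded libraries 1, 2 and 3.

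The classes that held the Areg UMIs of a library differed between libraries. Dendritic cells held 0.786% and 0.704% of all Areg UMIs in the un-wounded and 5.19%, 50.3% and 28.4% in the wounded libraries, where they were 0.417% and 2.10% against 3.46%, 20.4% and 10.8% of the cells. Macrophages or monocytes held 0.175% and 0% against 4.85%, 19.97% and 28.6% of the Areg UMIs and were 0.0795% and 0.643% against 4.12%, 9.45% and 23.6% of the cells. Basal cells held 25.2% and 12.7% of the Areg UMIs of the un-wounded libraries and 23.7%, 0.378% and 5.94% of those of the wounded libraries. Spinous cells held 30.7% and 31.5% against 36.0%, 0.897% and 9.08%. Lymphoid cells held 14.7% and 38.9% against 4.47%, 22.7% and 11.4%. In pericytes or smooth muscle cells, wounded library 3 alone had a high level, 82.9 CPM from 88 cells, and 75.9% of those UMIs came from 2 cells.

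Over 59 pairs of class and library (14 classes), with log2(CPM + 5) and 6863 genes compared, the genes most like Epgn included Cdh3, the P-cadherin gene (Pearson r = 0.85), and Dennd2c (0.80). Those most like Hbegf were Itpkc, an inositol trisphosphate kinase gene (0.80), Tubb4b, a tubulin gene (0.77), and Dgcr6 (0.76), and those most like Areg were Klk8, a kallikrein protease gene (0.68), B4galnt1 (0.68) and Tmem123 (0.68). The pairs share libraries and classes, so these values describe the profiles and carry no test. Egfr, Ereg, Tgfa and Btc did not reach the 50 CPM in any class and group mean that the rule asks for.

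Other genes of the pathway were examined in lists. Over all genes, 5.55% were called in fibroblasts, 1.81% in basal cells and 1.85% in spinous cells. Of 8 further ErbB receptors and ligands, 5 were tested in fibroblasts and 1 rose: Nrg1, the neuregulin 1 gene, had 0.434 and 0.570 CPM in un-wounded against 4.40, 4.33 and 6.77 CPM in wounded fibroblasts (3.33 ± 0.51; edgeR, adjusted p = 0.00711). Its effect exceeded that in basal cells by 2.60 ± 0.66 (edgeR, adjusted p = 0.0394). Of the 4 tested in basal and 3 in spinous cells 0 were called by edgeR or DESeq2, with 0 below an unadjusted p of 0.05, and the most abundant in basal cells were Erbb3 (13.3 to 19.9 CPM in basal cells) and Erbb2 (10.1 to 21.2 CPM), the co-receptor genes. The median log2 fold change of the 5 in fibroblasts was -0.81, against the direction of Nrg1. Of 10 sheddases and their partners, 2 of 10 tested rose in fibroblasts, Adam12 (3.19 ± 0.39; edgeR, adjusted p = 0.00308) and Adam9 (1.18 ± 0.22; edgeR, adjusted p = 0.0177), and 0 of 9 in basal or spinous cells by edgeR or DESeq2 (1 and 2 below an unadjusted p of 0.05). Adam12 had 2.17 and 5.98 CPM in un-wounded against 41.5, 32.2 and 48.5 CPM in wounded fibroblasts, without overlap. The most abundant of the list were Timp3, an inhibitor of these proteases (13.3 to 47.0 CPM), Adam8 and Furin in basal cells, Rhbdf2, Adam15 and Adam17, the main ligand sheddase (16.6 to 27.2 CPM), in spinous cells, and Timp3, Adam15 and Furin in fibroblasts. The list's median log2 fold change was 0.46 in fibroblasts and 0.07 in basal cells. Timp3 fell in pericytes or smooth muscle cells (-1.51 ± 0.31, edgeR, adjusted p = 0.0148), the 1 called of 4, where 16.5% of all genes were called. Adam8 fell in dendritic cells (-1.16 ± 0.27, edgeR, adjusted p = 0.0485), the 1 called of 8, where 3.00% of all genes were called.

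Genes that restrain the receptor and its signal were examined next. In basal cells 1.81% of all genes were called. Of 19 inhibitor and feedback genes, Dusp5, an ERK phosphatase gene, was the 1 called of 18 in basal cells, with 8.31 and 10.3 CPM in un-wounded against 46.6, 31.1 and 18.02 CPM in wounded libraries (1.97 ± 0.35; edgeR, adjusted p = 0.00164). Dusp5 (1.68) and Dusp6 (1.64) rose in spinous cells (2 of 18 tested, against 1.85% of all genes called), Dusp5 (2.01) and Spry2 (1.54) in fibroblasts (2 of 19, against 5.55%), and Dusp6 (2.38) and Errfi1 (1.76) in outer root sheath or bulge cells (2 of 11, against 0.780%). Dusp5 overlapped in spinous cells, with 6.78 and 6.94 CPM in un-wounded against 30.5, 6.22 and 12.1 CPM in wounded libraries. In pericytes or smooth muscle cells 1 of 7 was called, against 16.5% of all genes: Errfi1 fell, with 1141 and 1146 CPM in un-wounded against 345, 653 and 380 CPM in wounded libraries (-1.33 ± 0.33; edgeR, adjusted p = 0.0278). The list's median was -0.07 in basal, 0.28 in spinous and 0.14 in fibroblast cells. In basal cells Errfi1, which encodes a direct inhibitor of the receptor, had 80.6 and 66.0 CPM in un-wounded against 194, 107 and 84.4 CPM in wounded libraries and was not called (edgeR, adjusted p = 0.180). Socs3, the most abundant of the list in basal cells, had 733 and 486 CPM in un-wounded against 423, 293 and 202 CPM in wounded libraries and was not called (edgeR, adjusted p = 0.234).

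Of 16 transcripts known to rise after receptor activation, 2 of which (Fos and Egr1) are also among the early dissociation genes, 3 of 13 tested rose in basal cells: Phlda1 (2.04 ± 0.44; edgeR, adjusted p = 0.0116), Plaur, the urokinase receptor gene (3.45 ± 0.58; edgeR, adjusted p = 0.000950), and Fosl1 (1.46 ± 0.38; edgeR, adjusted p = 0.0473). Phlda1 was the 1 of 11 that rose in spinous cells (2.56 ± 0.33; edgeR, adjusted p = 0.000335) and the 1 of 9 in outer root sheath or bulge cells (2.27 ± 0.39; edgeR, adjusted p = 0.0239). It had 65.2 and 67.4 CPM in un-wounded against 261, 57.7 and 376 CPM in wounded basal cells, so that wounded library 2 (30 cells) lies below both un-wounded libraries. The same held for Plaur in basal cells, with 0.477 and 1.66 CPM against 11.5, 0 and 9.49 CPM. For Fosl1 the groups overlapped, with 120 and 55.6 CPM against 310, 102 and 223 CPM. DESeq2 called 1 of the 13 in basal cells. By edgeR, 1.81% of all genes were called in basal, 1.85% in spinous, 0.780% in outer root sheath or bulge and 3.00% in dendritic cells. In fibroblasts, where 5.55% of all genes were called, 5 of 14 rose (Phlda1, Fosl1, Myc, Ier3 and Mmp9) and 1 fell, the cyclin gene Ccnd1 (-1.16 ± 0.24; edgeR, adjusted p = 0.0245). In pericytes or smooth muscle cells, where 16.5% of all genes were called, Ccnd1 rose, with 16.3 and 0 CPM in un-wounded against 74.7, 85.1 and 63.7 CPM in wounded libraries (3.03 ± 0.67; edgeR, adjusted p = 0.0185), and Fos and Egr1 fell. Fos was the 1 of 9 called in dendritic cells, where it fell. The median over the list was 0.69 in basal cells, 1.05 in spinous cells and 0.76 in fibroblasts, against -0.08, -0.04 and -0.0044 over all genes. Of 17 adaptor and kinase genes, Hras, Map2k2 and Stat3 among them, all 17 were tested in basal, spinous and fibroblast cells and 0 were called by edgeR or DESeq2 or had an unadjusted p below 0.05. Their median log2 fold changes were 0.01, 0.00071 and -0.08.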

How the data were processed

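Gene counts per cell were analysed for 2 un-wounded and 3 wounded skin libraries. The deposited files hold raw UMI counts made by the authors with Cell Ranger 1.3.1 on mm10, per the submitters' processing notes; the annotation is not given in the sources used here. Of the gene IDs, 98.7% were in GENCODE vM21 (GRCm38). Cells with under 200 genes or over 10% mitochondrial UMIs and doublets predicted by Scrublet were removed, which kept 25597 cells. Cells were clustered with scanpy 1.11.5 (2003 variable genes, 30 components, Leiden resolution 1) without the 7 genes, and 26 of 32 clusters were named from marker lists. Counts were summed per library and class (at least 20 cells in each library), in 8 classes and whole libraries, and tested with edgeR 4.0.16 (filterByExpr, TMM, quasi-likelihood; R 4.3.3), with p-values adjusted over all genes by the Benjamini-Hochberg method and called below 0.05. The code was tested on simulated counts. Interaction fits had the library as a block. Shares of cells were compared at 1500 UMIs per cell by exact permutation over the 10 assignments of the libraries, and 95% intervals (exact Poisson) cover counting error only. Alternatives were DESeq2 1.42.0, other scaling, filters and clusterings, the replicate number as a block, and leaving out libraries or the 2 highest cells. Leaving out or adding clusters 2, 20, 21 and 28 was chosen after seeing the data. All 7 genes are named, with the 3 most like each that reaches 50 CPM (1 of those for Epgn is not reported here), and from the pathway lists the genes called within a class and some of the most abundant. The genes, lists and markers were chosen with earlier results of these data known. The labels give no batch or date.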

Additional observations from a re-analysis of the deposited data

Results flagged for a closer look

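The wound effect on Egfr differed between fibroblasts and basal keratinocytes by 1.13 on the log2 scale (edgeR interaction, adjusted p = 0.0378), the 1 of the 7 genes for which the difference between these classes was called. It was not called in 4 of 7 alternatives.

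The other values come from cells outside the tested classes, where the wounded libraries were all above the un-wounded ones; they are pooled ratios with exact 95% counting intervals and have no replicate test. In cluster 18, an unnamed cluster with Dct and Mbp among its leading genes, whose markers are those of both Schwann cells and melanocytes, Btc was 25.5 times higher in wounded skin (4.42 to 1020), from 69 UMIs in 53 cells against 1 UMI in 46 cells. Its levels were 0 and 7.30 CPM in un-wounded and 44.1, 127 and 239 CPM in wounded libraries. The early dissociation genes of these cells summed to 42446 and 30672 CPM against 5367, 6394 and 7605 CPM, and their part in the difference was not tested.

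Cluster 5, an unnamed keratinocyte cluster led by Sostdc1, Fst and Vsnl1, had more of 3 ligands in wounded skin. Epgn was 3.1 times higher (2.62 to 3.68), with 55.6 and 118 CPM against 210, 173 and 191 CPM. Hbegf was 2.2 times higher (1.81 to 2.68), with 50.3 and 94.4 CPM against 115, 169 and 168 CPM. Tgfa was 3.04 times higher (1.67 to 5.69), with 5.71 and 5.78 CPM against 16.4, 18.7 and 22.7 CPM, from 18 UMIs in un-wounded and 35 UMIs in wounded skin. The cluster had 421 and 55 cells in un-wounded and 268, 30 and 24 cells in wounded libraries.

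Macrophages or monocytes had 0 Hbegf UMIs in 37 un-wounded cells and 296 UMIs in 1648 wounded cells (27.8, 30.3 and 31.3 CPM). With 3 UMIs put in for the 0 of the un-wounded group, the wounded over un-wounded ratio was 1.8, not a measured fold change. This value rests on 37 un-wounded cells, and no counting interval is given for it.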

How the results depend on the processing

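Epgn and Areg in basal cells were called in 16 of 17 alternatives each, Ereg in fibroblasts in 14 of 18, Areg in spinous cells in 8 of 16 and the Egfr interaction in 3 of 7. The number of the 7 genes called changed as follows. With doublets kept it was 0 in basal and 0 in spinous cells. With no filter on low counts it was 4 in basal cells, 4 in fibroblasts, 2 in spinous, 2 in outer root sheath or bulge cells, 1 in dendritic cells, 1 in pericytes or smooth muscle cells and 1 in whole libraries. With DESeq2 it was 2 in fibroblasts, 1 in outer root sheath or bulge cells, 1 in whole libraries and 0 in spinous cells. With Leiden resolution 2.0 it was 0 in fibroblasts, 0 in spinous cells and 0 in the interaction of fibroblasts and basal cells. With the 7 genes used in clustering, or without TMM, it was 0 in spinous cells. Without the 2 highest cells of each gene it was 2 in spinous, 1 in dendritic and 1 in outer root sheath or bulge cells. It was 2 with cluster 21 in the fibroblasts and 0 without cluster 20. With the replicate number as a block it was 4 in fibroblasts, 2 in spinous, 2 in dendritic, 2 in outer root sheath or bulge and 1 in upper hair follicle cells; the labels do not say that the numbers pair libraries, there are 2 pairs, and deviations of same-numbered libraries correlated at 0.119 to 0.469. Leaving out 1 library at a time, with a lone un-wounded library assumed to vary like the others, gave 0 to 1 in whole libraries and dendritic cells, 0 to 2 in fibroblasts, outer root sheath or bulge cells and the interaction of fibroblasts and basal cells, 0 to 3 in spinous cells and 0 to 1 in the interaction of spinous and basal cells. Signs changed for Egfr in basal cells (0.0199 with the 7 genes in clustering, 0.00291 with the block, -0.271 to 0.0982 without 1 library), for Egfr in spinous cells (-0.0536 with doublets kept, -0.0109 with the 7 genes in clustering, -0.106 without TMM, -0.148 to 0.294 without 1 library), for Areg in fibroblasts with doublets kept (-0.551) and for Hbegf in fibroblasts without cluster 20 (-0.193); the cause was not tested. Over all genes, the number called ranged from 35 to 532 in basal cells (206 as reported), 38 to 1656 in fibroblasts (727), 42 to 354 in spinous cells (204) and 0 to 2704 in whole libraries (100). Few keratinocytes in wounded libraries 2 and 3 limit the precision there.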
